A study of Saccharomyces cerevisiae with 20 samples.

Results

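Yeast strains that each carried 1 designed change in histone H3 or histone H4 were followed through renewed growth after dilution into fresh medium. The change of each strain was measured as its level in the 6 libraries of days 1, 2 and 3 against its level in the 2 libraries of day 0, 8 of the 20 libraries of the series. Each day gave 1 library of the quiescent and 1 of the non-quiescent fraction, which were parted on a density gradient, so that both sides of the comparison held each fraction equally often. All strains derived from the parent JDY86, which has the HHT1-HHF1 gene pair for H3 and H4 removed and the altered gene pair at HHT2-HHF2, so that the altered histone was the only H3 or H4 of the cell. The strains are MATa, carry NatMX4 at the removed pair and URA3 beside the altered one, and share his3, leu2, trp1, ura3 and met15 mutations, a deletion that the study's methods print as K2Δ0, and a can1::MFA1pr-HIS3 insertion. The pool was scraped from plates with nourseothricin, with slow-growing strains streaked apart and added at the volume of a normal colony. It was thawed, grown in rich medium, diluted again and shaken at 30°C. The study's methods express barcode levels against a mixed starting population but do not give the step at which day 0 was sampled. It is taken here as the start of that last culture. Had day 0 been taken earlier, the change would include the growth before the last dilution, which cannot be told apart here. Everything came from 1 pooled culture and each change was followed in 1 strain, so that culture, strain and change cannot be told apart, and the days are serial samples of the same cells.

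H3 and H4 form the central tetramer of the nucleosome, around which DNA is wrapped. Their folded parts hold the tetramer together and touch the DNA, whereas their N-terminal tails reach out of the particle and carry most of the acetylated and methylated lysines through which chromatin enzymes act. In a pool that grows together, a strain that divides more slowly than the others loses share at each generation, and a strain that divides faster gains it.

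Each strain was identified by a pair of DNA barcodes, named up and down, that were amplified and counted apart. The pairs of 6 strains are shown because the lowest and highest values below rest on 4 of them and the other pairs share a sequence, which is set in capitals.
wild type, up: TTGCTTTGAGGACGTCCCAC
wild type, down: ccaccttgtccttaggacac
H3G13A, up: tagcatccgcgaatgtgtcc
H3G13A, down: TTGCTTTGAGGACGTCCCAC
H3[del 5-20], up: atcacactctggaaggaggc
H3[del 5-20], down: tacgagcgactcagatacgg
H3K56A, up: aggaggccctgcatttccat
H3K56A, down: aaatctcattggaggaggct
H4G6A, up: tattctccgtgacgcgggtt
H4G6A, down: agaccgggttcatggttatt
H3K79Q, up: gccggacctataatctaatc
H3K79Q, down: gaccgtagactgttctgaat
The up barcode of the wild type is also the down barcode of H3G13A, so that only the primer pair told them apart. The up barcode of the wild type alone changed by 0.48 and its down barcode alone by 0.41 on the log2 scale. For H3G13A the up barcode alone changed by 0.35 and the shared down barcode by 0.58.

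The barcode table names 422 strains. Of these 354 were ever counted, and the 347 that averaged 10 counts or more over the 20 libraries were compared. They were 172 substitutions and 31 tail deletions of H3, 125 substitutions and 15 tail deletions of H4, 3 strains that carry more than 1 substitution, and the wild type. Of the 51 designed deletions of the H3 tail 31 were compared, so that counts over them describe those present. The libraries of days 1 to 3 held 153369 to 180040 counts, against 178011 in the quiescent and 143830 in the non-quiescent library of day 0, and the median strain had between 272 and 371 counts. Levels are log2 counts (up plus down) less that of the median strain of the library, and a strain's difference is its mean level at days 1 to 3 (n = 6) minus that at day 0 (n = 2). Across strains the day 0 libraries correlated at 0.94 with each other, and the days 1-3 libraries at 0.88 to 0.98 with each other but at 0.53 to 0.66 with those of day 0. These correlations share the culture and the strains and are given as a description. The day 3 libraries resembled those of day 2 of their own fraction (0.98 in each), whereas each library of day 5, which entered here through the count filter alone, resembled day 3 of the other fraction more (0.97 and 0.98) than of its own (0.90 and 0.91).

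The composition of the pool differed widely between days 1-3 and day 0. Of 347 strains, 99 rose (28.5%) and 68 fell (19.6%) at an adjusted p under 0.05 (edgeR quasi-likelihood F-test, Benjamini-Hochberg over all strains). The falls went further than the rises. No strain was more than 4-fold higher, whereas 32 were more than 4-fold lower, 20 more than 8-fold and 8 more than 16-fold. The strains that fell had a median difference of -1.83 and held 5.72% to 9.26% of the named counts in the libraries of days 1-3, against 24.8% and 28.9% in those of day 0. The strains that rose had a median difference of 0.83 and held 42.4% to 53.6% of the counts at days 1-3, against 27.5% and 23.6% at day 0. In 124 strains (35.7%) each days 1-3 library lay above each day 0 library and in 85 (24.5%) below, and 165 of the 167 called strains were among these. All 167 had up and down barcode on the same side and the same sign in both fractions, which is in part built in. The calls were made on the summed counts of both barcodes and on the libraries of both fractions. Of all 347 strains, called or not, 311 had both barcodes on the same side. The balance of rises and falls depended on the scale. With TMM it was 70 to 76, with DESeq2 90 to 92, and with the wild type as the zero 23 to 88, where the median strain stood at -0.25. It also rested on the 2 libraries of day 0, since without the non-quiescent one 16 strains rose and 29 fell, and without the quiescent one 38 rose and 47 fell.

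The wild type itself had 1067 to 1395 counts at days 1-3 (median 1213.5), against 1012 in the quiescent and 841 in the non-quiescent library of day 0. All its levels of days 1-3 lay above those of day 0. The difference was 0.41 (SE 0.17), which did not pass the test (edgeR adjusted p = 0.0752).

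Most of the change was present at day 1. The differences from day 0 had an SD over strains of 1.34 at day 1, 1.34 at day 2 and 1.36 at day 3, whereas the difference of day 3 from day 1 had an SD of 0.39. With a mean fitted for each day, 14 strains rose and 37 fell at day 1 (4.03% and 10.7% of 347), 10 rose and 34 fell at day 2 (2.88% and 9.8%), and 33 rose and 36 fell at day 3 (9.51% and 10.4%). All 51 strains called at day 1 were called in the same direction over days 1-3, which is in part built in. The libraries of day 1 are among those of days 1-3, and both comparisons use the same libraries of day 0. In the strains that fell the median was -1.90 at day 1, -1.87 at day 2 and -1.79 at day 3. In 65 of these 68 the value at day 1 was at least 0.75 of the mean of the 3 days, which includes day 1. In the strains that rose the median was 0.81, 0.82 and 0.92. No strain passed for day 3 over day 1 with edgeR (0 of 347, 6 or 1.73% at an unadjusted p under 0.05) or with DESeq2 (0, with 8 unadjusted).

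**Figure D1:**
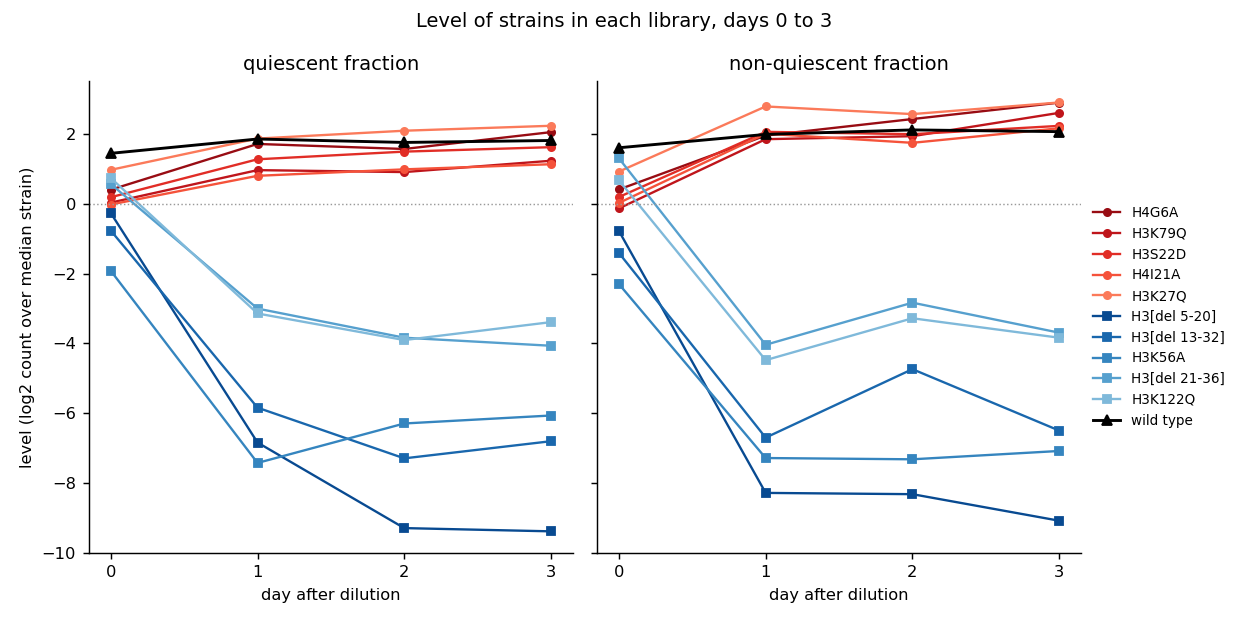
Level of the 5 highest and 5 lowest called strains and of the wild type in each library of days 0 to 3, as log2 count less that of the median strain (y axis), by day (x axis) and fraction (panels), with 1 point per library. The strains that fell had dropped by day 1, and H3[del 5-20] reached 0 counts in 3 of the 6 libraries of days 1-3.

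The 2 strains that fell furthest were deletions in the H3 tail. Of 31 deletions of the H3 tail 17 fell and 1 rose, with a median difference of -1.22, and of 15 deletions of the H4 tail 10 fell and 2 rose, with a median of -1.18. Over all 347 strains the median was 0.14. Without the non-quiescent library of day 0, 9 and 4 deletions passed as lower, and without the quiescent one 12 and 7. These deletions overlap in the residues they remove and are not independent of each other. The deepest fall was that of H3[del 5-20], which lacks the K9, K14 and K18 acetylation sites. It had 0 to 3 counts at days 1-3 (median 0.5, sum 5), against 309 in the quiescent and 161 in the non-quiescent library of day 0. The difference was -8.02 (SE 0.56, edgeR adjusted p = 9.73e-06), and the ratio of the summed counts over the scale of the median strain was -8.11 (exact Clopper-Pearson 95% interval -9.74 to -6.88, counting error alone). H3[del 13-32], which removes the middle of the tail, had 2 to 12 counts (median 3), against 322 over both libraries of day 0, a difference of -5.23 (SE 0.47, adjusted p = 4.71e-05). H3[del 21-36], which removes K27 and K36, fell by 4.52 (SE 0.34, adjusted p = 1.15e-05), with 19 to 45 counts at days 1-3 (median 21.5), against 550 and 682 at day 0. H3[del 5-24], H3[del 17-32] and H3[del 13-28] also fell, at -4.03, -3.97 and -3.82. In each of these the days 1-3 libraries lay below both day 0 libraries. Each of the 6 passed in all alternatives that gave it a value.

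Longer deletions of the H3 tail fell further than shorter ones. Of 13 deletions of 12 residues or more 12 fell (median -3.54), and of 18 deletions of 8 residues or fewer 5 fell and 1 rose (median -0.36). Where a longer deletion removed each residue of a shorter one, the longer one was lower in 111 pairs and higher in 7, with a median difference of -2.84. The exceptions included H3[del 4-20] and H3[del 5-24], which each remove all of residues 5 to 20 and more but stood 4.77 and 3.99 above H3[del 5-20]. H3[del 4-20] had 14 to 32 counts at days 1-3 (median 19), against 183 and 203 at day 0, a difference of -3.25 (SE 0.32, adjusted p = 6.51e-05). Loss of the first 4 residues alone, with R2 and K4, gave a fall of 2.06 (SE 0.51, adjusted p = 0.0162). Some short deletions in the middle and the base of the tail did not fall. H3[del 21-24] rose by 0.44 (SE 0.16, adjusted p = 0.0443), and the values of H3[del 28-31] and H3[del 29-32], 0.55 and 0.72, did not pass. With TMM and with the wild type as the zero 0 of the 31 H3 deletions rose. The call of H3[del 21-24] was also lost when either library of day 0 was left out.

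The H4 tail held more exceptions to an order by length. The longer deletion was lower in 19 of 27 nested pairs and higher in 8, with a median of -0.49. H4[del 1-4] had 52 to 286 counts at days 1-3 (median 148), against 1479 and 1211 at day 0. Its difference was -3.36 (SE 0.47, edgeR adjusted p = 0.000871), whereas H4[del 1-12], which lacks the same residues and 8 more, fell by 1.17 (SE 0.33, adjusted p = 0.02). H4[del 15-18], which removes K16 and part of the basic patch contacted by silencing factors, was one of the most abundant strains at day 0, with 3064 quiescent and 3205 non-quiescent counts. At days 1-3 it had 256 to 682 (median 329.5), and it fell by 3.09 (SE 0.31, adjusted p = 7.55e-05). The neighbouring H4[del 9-16], which lacks K12 and K16, went the other way, with 1292 to 2651 counts at days 1-3 (median 1880.5), against 1292 and 732 at day 0, and after scaling each days 1-3 library lay above both. Its rise was 0.97 (SE 0.33, adjusted p = 0.0328), which did not pass with the wild type as the zero (0.128), without the quiescent (0.0898) or without the non-quiescent library of day 0 (0.219). H4[del 5-8], which removes K5 and K8, rose by 0.63 (SE 0.19, adjusted p = 0.0208), and H4[del 13-16] had a value of 0.65 that did not pass (0.0556). With the wild type as the zero 0 of the 15 H4 deletions rose. The call of H4[del 5-8] was also lost when either library of day 0 was left out.

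**Figure D2:**
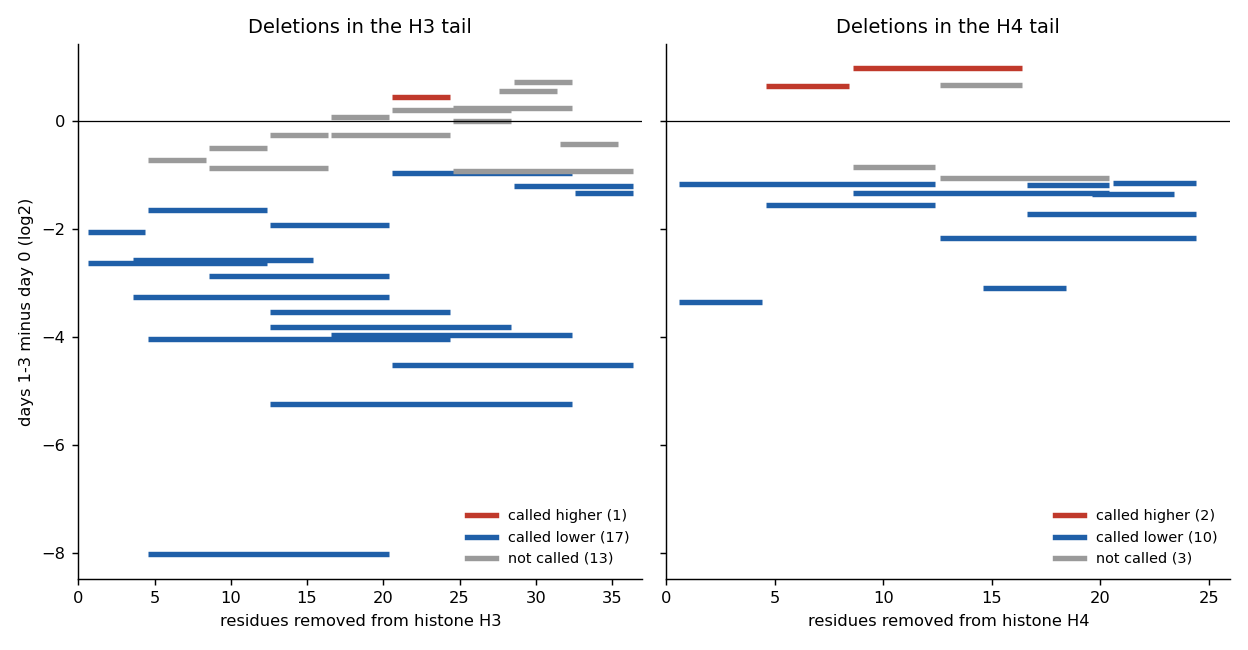
Tail deletions of H3 (left) and H4 (right), each drawn as a bar over the residues it removes (x axis) at its difference between days 1-3 and day 0 in log2 units (y axis). Bars for 17 of 31 H3 deletions and 10 of 15 H4 deletions are called lower, and the long H3 bars lie lowest, down to -8.02.

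Among single substitutions the deepest falls lay in a few stretches of the folds. Over all 297 substitutions 96 rose (32.3%) and 39 fell (13.1%), the shares beside which the counts of the lists below stand. H3 substitutions gave 41 rises and 23 falls of 172 (median 0.15) and H4 substitutions 55 rises and 16 falls of 125 (median 0.42). On the scale of the wild type the fitted medians were -0.22 for H3, where the direction turned, and 0.02 for H4. The N-terminal helix region of H3 (residues 44 to 62), which lies where DNA enters and leaves the nucleosome, held 5 falls and no rise among 13 strains, with a median of -0.57. K56, which is acetylated on newly made H3 during replication, and its neighbours carried these falls. H3K56A had 2 to 5 counts at days 1-3 (median 2), against 98 quiescent and 56 non-quiescent at day 0. The difference was -4.81 (SE 0.36, edgeR adjusted p = 1.15e-05), and the ratio of sums was -4.74 (95% interval -5.55 to -4.01). H3K56Q, often used to mimic acetylation, was not as low, at -2.78 (SE 0.30, adjusted p = 0.000121), with 51 to 121 counts (median 92), against 637 and 515. H3S57D, which places a negative charge beside K56, fell by 2.94 (SE 0.50, adjusted p = 0.00303), whereas H3S57A stood at 0.19 and did not pass. H3L60A fell by 4.12 (SE 0.42, adjusted p = 8.47e-05) and H3L61A by 2.41. H3T58A and H3A47S, the highest of the region, were at 0.40 and 0.37 and did not pass.

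A second group of deep falls lay near the dyad, in the second loop and final helix of H3, where K115 and K122 face the DNA and can be acetylated. H3K122Q had 14 to 39 counts at days 1-3 (median 26.5), against 620 quiescent and 440 non-quiescent at day 0. No library of days 1-3 came near those of day 0, and the difference was -4.38 (SE 0.29, edgeR adjusted p = 9.73e-06). H3V117A had 20 to 47 counts (median 29.5), against 485 and 454, and fell by 3.96 (SE 0.28, adjusted p = 9.73e-06). H3K115Q fell by 3.61 (SE 0.36, adjusted p = 7.55e-05), from a low base of 72 and 65 counts at day 0. The region as a whole had 5 rises and 4 falls of 23 and a median of 0.14, the same as all strains (fitted median -0.26 with no rise on the scale of the wild type, and no rise and 3 falls without the non-quiescent library of day 0), and its highest strains, H3R128K and H3R131K, rose by 0.83 and 0.81.

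The helices of both folds each held 1 or 2 deep falls among many smaller values. H4R36A, in the first helix of H4, had 11 to 38 counts at days 1-3 (median 19.5), against 418 and 433 at day 0, a difference of -4.36 (SE 0.38, edgeR adjusted p = 4.06e-05). H3F104A, in the long central helix of H3, was abundant at day 0 with 1990 and 2002 counts and had 111 to 340 at days 1-3 (median 182.5), a difference of -3.35 (SE 0.34, adjusted p = 8.14e-05). H3Q68A in the first helix of H3 (-3.30), H4D85A (-2.92), H4L97A (-2.64) and H4E52A (-2.14) fell too. H3G90A had a low mean (-2.18) but did not pass (0.0617), since its counts at days 1-3 ran from 25 to 211. The first loop of H3, with K79, held 3 rises (30%, near the 32.3% of all substitutions) and no fall of 10 strains (median 0.26). The second helix of H3 held 6 rises and 4 falls of 29 (median -0.36), the first helix of H3 3 and 4 of 20 (-0.02), the second helix of H4 9 and 5 of 30 (0.22), the first helix and loop of H4 6 and 4 of 20 (-0.06), and its second loop and final helix 4 and 4 of 19 (0.08). On the scale of the wild type the fitted medians of all 6 lists were below 0 (H3 first loop -0.11, H3 second helix -0.79, H3 first helix -0.33, H4 second helix -0.17, H4 first helix and loop -0.39, H4 second loop and final helix -0.32), and the second helix of H4 held no rise and 10 falls. The median of the last list was also below 0 with TMM (-0.05) and DESeq2 (-0.10). None of the 6 held more than 2 rises or 2 falls without the non-quiescent library of day 0.

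Alanine in place of a large hydrophobic residue of the fold gave 11 falls and 1 rise among 26 strains, with a median of -0.70 and 14 strains that did not pass. Without the non-quiescent library of day 0, 2 of them passed as lower, and without the quiescent one 7. H3V117A, H3F104A and H4V81A (-1.94, SE 0.41, adjusted p = 0.00778) were the lowest. The rise was H4I66A, with 238 to 552 counts at days 1-3 (median 303.5), against 212 and 159 at day 0 (0.84, SE 0.31, adjusted p = 0.0379). Its adjusted p was 0.156 without the quiescent and 0.162 without the non-quiescent library of day 0. SIN positions are those where some changes make the remodeller SWI/SNF dispensable, and 2 of their 3 strains were compared. H3E105Q fell by 1.46 and H4V43A by 0.94, but neither passed without the non-quiescent library of day 0 (adjusted p of 0.133 and 0.153) and H3E105Q did not pass without the quiescent one (0.129). At minor-groove arginine R83 of H3, H3R83K rose by 0.75 and H3R83A stood at 0.11. The LRS surface, needed for silencing of rDNA and telomeres, held 7 rises and 2 falls of 25 strains. These are 28% and 8%, against 32.3% and 13.1% of all substitutions. Its median was 0.18, with 3 rises, 3 falls and a fitted median of -0.19 on the scale of the wild type. Its values ran from H4V81A and H4T80A (-1.23) to H3R72K (1.08) and H3K79Q. Of residues where the H3 copies meet, H3L109A fell by 0.80 while H3A110S (-0.95) and H3A127S (0.14) did not pass. Of 8 strains at contacts of H4 with H2B, H4Y88A fell by 1.53 and H4Y98F and H4R92A rose by 1.22 and 0.66, and H4Y88F (-0.86) did not pass.

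**Figure D3:**
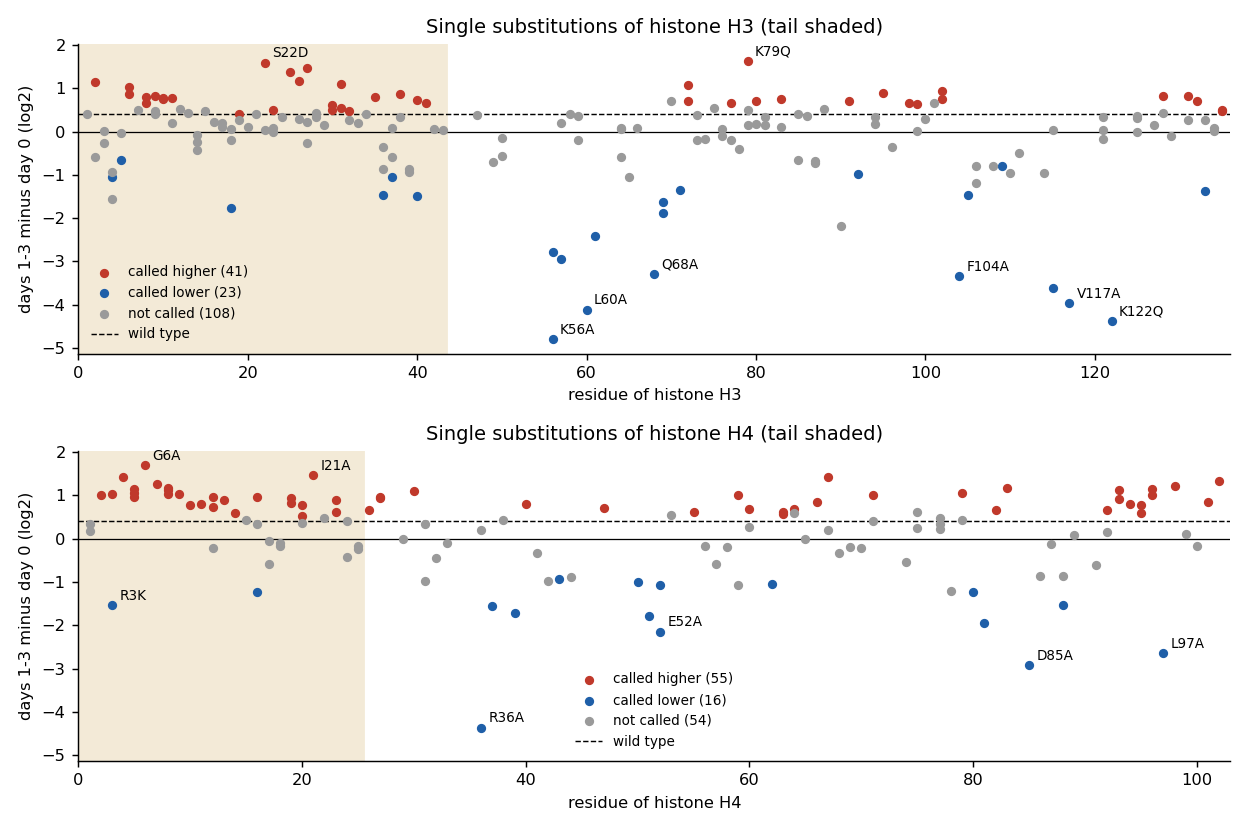
Difference between days 1-3 and day 0 in log2 units (y axis) of each single substitution by residue (x axis) of H3 (top) and H4 (bottom), 1 point per strain, with the tails shaded and the wild type as a dashed line at 0.41. The lowest points, between -3.30 and -4.81, lie in the folds, and the H4 tail holds a run of called rises.

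The strain that rose furthest, H4G6A, lies in the H4 tail, and H3K79Q (1.63) and H3S22D (1.59) rose nearly as far. H4G6A had 937 to 2033 counts at days 1-3 (median 1306), against 491 quiescent and 367 non-quiescent at day 0, and each days 1-3 library lay above both. The difference was 1.70 (SE 0.37, edgeR adjusted p = 0.00496), a 3.24-fold gain. Of the first 15 residues of H4, which hold the acetylated lysines K5, K8 and K12 between glycines, 18 of 23 strains rose and 1 fell, with a median of 0.96. With the wild type as the zero the fitted median was 0.57 and 5 rose. Without the non-quiescent library of day 0 only 1 of the 23 passed as higher, and without the quiescent one 2, although the fitted medians were 0.98 and 0.93. The fitted median was 1.22 in the non-quiescent and 0.62 in the quiescent libraries. All 8 glycine to alanine strains of this stretch rose (median 1.02), with H4G4A at 1.44 (SE 0.36, adjusted p = 0.00913) and H4G7A at 1.27 (SE 0.35, adjusted p = 0.0143) next to H4G6A. Among 12 glycine to alanine strains elsewhere 4 rose and none fell (median 0.41).

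At K5, K8 and K12 of H4, 8 of 9 strains rose whichever residue stood in place of lysine (median 1.02). H4K8A was the highest of the 9, with 1090 to 1736 counts at days 1-3 (median 1283), against 738 and 495 at day 0 (1.17, SE 0.29, adjusted p = 0.00942). H4K12R, at -0.22, was the exception and did not pass. The strain with all 4 acetylated lysines of H4 changed to glutamine, H4K5,8,12,16Q, was far below each of its single counterparts. It had 27 to 133 counts at days 1-3 (median 48.5), against 536 and 455 at day 0. The fall was 3.29 (SE 0.46, adjusted p = 0.000854) and rests on its up barcode (-3.04). The down barcode alone gave -0.30, and why it differed was not tested. Up, down and summed levels were each centred on their own median strain, so that the summed difference could lie below both. H4R3K, at the arginine that precedes this stretch, fell by 1.54 (SE 0.33, adjusted p = 0.00712).

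K16 of H4, whose unacetylated form is bound by the silencing protein Sir3, gave strains on both sides. H4K16A had 41 to 94 counts at days 1-3 (median 67), against 184 and 128 at day 0, and fell by 1.22 (SE 0.29, adjusted p = 0.0107). That call passed in 18 of 23 alternatives. H4K16R had 776 to 1841 counts (median 1212), against 735 and 541, and rose by 0.96 (SE 0.39, adjusted p = 0.0479), a call that passed in 11 of 23 alternatives. The calls of H4K16A and H4K16R were each lost when either library of day 0 was left out. H4K16Q stood at 0.33 and did not pass (0.271). Residues 16 to 25 of H4 held 8 rises and 1 fall of 20 strains (median 0.39), with 1 rise, 2 falls and a fitted median of 0.03 on the scale of the wild type. H4I21A, at 1.47 (SE 0.40, adjusted p = 0.0133), was the highest and H4R17K (-0.58) did not pass. The call of H4I21A passed in 21 of 23 alternatives but was lost when either library of day 0 was left out.

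The last residues of H4, from residue 93 on, held 10 rises among 13 strains with 1 fall and a median of 0.85. Here 3 rose with the wild type as the zero (fitted median 0.46), 4 without the quiescent and 3 without the non-quiescent library of day 0. H4G102A, at the C-terminal residue, had 298 to 373 counts at days 1-3 (median 336.5), against 140 and 125 at day 0. Its rise of 1.34 (SE 0.22, adjusted p = 0.00128) passed in each of 23 alternatives. H4Y98F rose by 1.22, H4F100A (-0.17) did not pass, and H4L97A was the fall.

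Rises and falls were spread along the H3 tail. The first 8 residues held 5 rises and 2 falls of 15 (median 0.01), and the stretch from K9 to K18 held 4 and 1 of 19 (0.22). Residues 19 to 28 held 6 and 0 of 18 (0.33), and the base of the tail to residue 43 held 9 and 3 of 25 (0.21). Rises made up 33.3%, 21.1%, 33.3% and 36% of these strains, against 32.3% of all substitutions. On the scale of the wild type the direction turned in each of the 4 stretches, with fitted medians of -0.22, -0.18, -0.07 and -0.22, and in the first also with DESeq2 (-0.01). Each held 1 rise and no fall without the non-quiescent library of day 0, and without the quiescent one the rises numbered 2, 2, 4 and 3. H3S22D rose by 1.59 (SE 0.28, edgeR adjusted p = 0.00237), with 836 to 1309 counts at days 1-3 (median 1158.5), against 423 and 316 at day 0. H3K27Q rose by 1.46 (SE 0.31, adjusted p = 0.00479), whereas H3K27R (-0.26) and H3K23R (-0.01) did not pass. H3A25S rose by 1.38, H3S31D by 1.10, H3T6D by 1.03, H3P38V by 0.86, H3K9Q by 0.81 and H3S10A by 0.78. In the other direction, H3K18Q fell by 1.78 (SE 0.36, adjusted p = 0.00608), with 207 to 657 counts (median 343.5), against 1226 and 1269, and H3R40A fell by 1.49. H3K14A stood at -0.42 and did not pass. Of tail serines and threonines that can be phosphorylated, 3 of 10 strains rose (30%, near the 32.3% of all substitutions) and none fell. Their median was 0.34, but on the scale of the wild type there was no rise and a fitted median of -0.04. H3S10A and H3T11D (0.78) were among the rises. H3T3A (0.01) and H3T3D (-0.26) did not pass.

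The lysines that are methylated in yeast, K4 by Set1, K36 by Set2 and K79 by Dot1, gave values on both sides of 0. Of their 9 strains 1 rose, 2 fell and 6 did not pass, among them H3K79A (0.14). The calls of H3K4R, H3K36Q and H3K79Q were each lost when either library of day 0 was left out. At K4 the values were -1.55 (H3K4Q), -1.04 (H3K4R) and -0.93 (H3K4A), of which H3K4R passed (SE 0.32, adjusted p = 0.0344). In mean levels the barcodes of H3K4Q differed in sign (up -1.46, down 0.27). Its fitted difference was below 0 in each alternative that gave it a value, single barcodes included, from -2.57 to -0.41. At K36, H3K36Q fell by 1.47 (SE 0.38, adjusted p = 0.0179), and H3K36R (-0.87) and H3K36A (-0.37) did not pass. At K79, H3K79Q was next to H4G6A the highest of all strains, with 592 to 1659 counts at days 1-3 (median 961), against 380 quiescent and 252 non-quiescent at day 0. It rose by 1.63 (SE 0.47, adjusted p = 0.0154; 0.119 without the non-quiescent and 0.0804 without the quiescent library of day 0), while H3K79R at 0.49 did not pass (0.0559). Changing K4, K9, K14 and K18 together gave a difference of -3.94 with arginine (SE 0.77, adjusted p = 0.00878), with counts of 20 to 242 at days 1-3 (median 37), against 801 and 738 at day 0. The same 4 lysines changed to glutamine stood at -1.02 and did not pass (0.155).

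**Figure D4:**
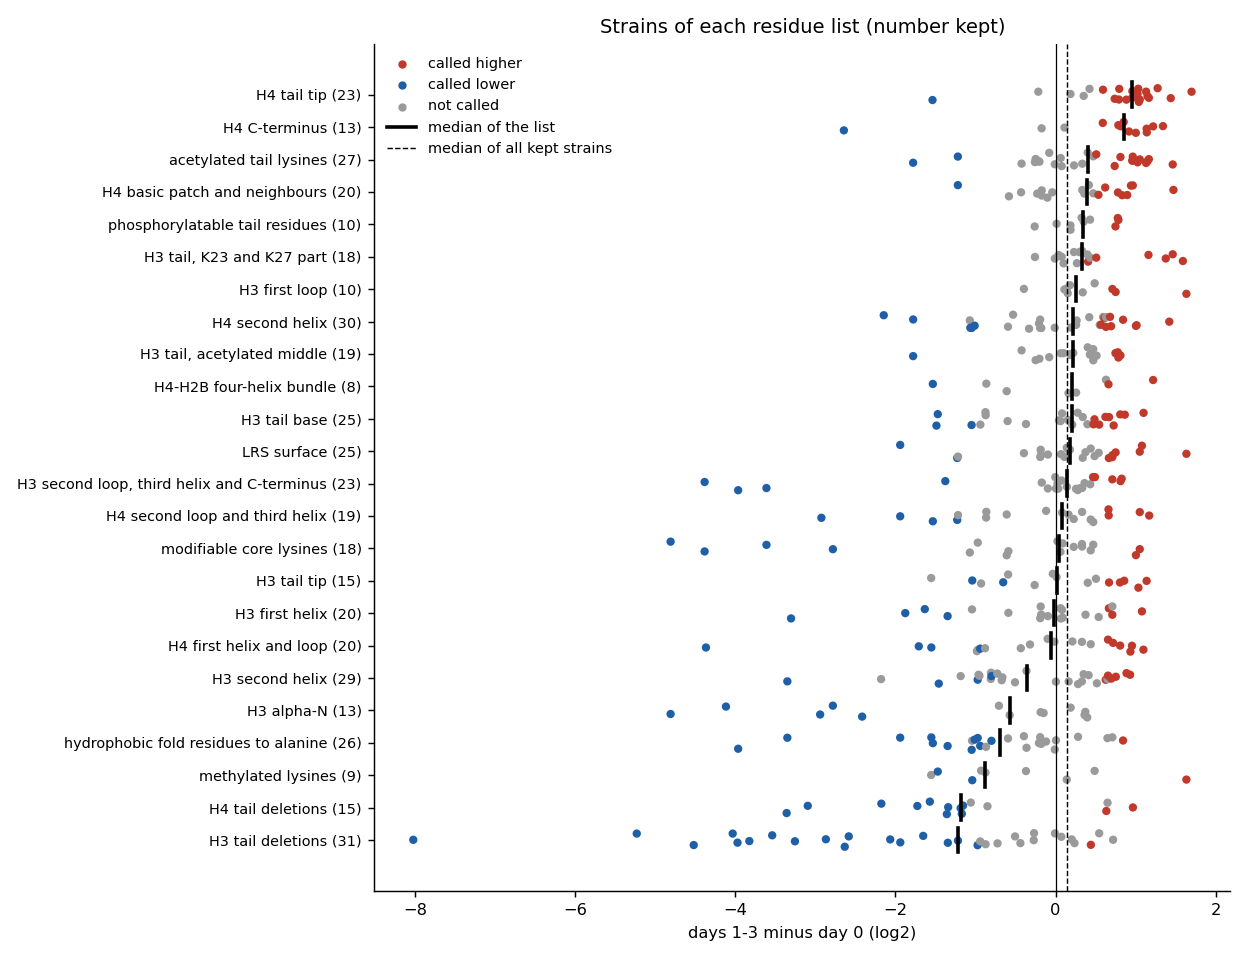
Difference between days 1-3 and day 0 in log2 units (x axis) of each kept strain by residue list (rows, with the number of strains), with the median of the list as a bar and that of all 347 strains as a dashed line at 0.14. The H4 tail tip and C-terminus have the highest medians (0.96 and 0.85) and, among the lists of 5 or more strains that are drawn, the tail deletions the lowest (-1.22 and -1.18).

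Substitutions are grouped next by the residue that was put in. Of 26 serine or threonine to alanine strains 15 rose and 1 fell (median 0.51), of 24 arginine to lysine strains 13 rose and 3 fell (0.60), and of 20 arginine to alanine strains 8 rose and 3 fell (0.29). On the scale of the wild type the fitted medians were 0.10, 0.20 and -0.11, so that the direction turned for arginine to alanine, with 3, 2 and 1 rises. Without the non-quiescent library of day 0 the rises numbered 3, 4 and 2, and without the quiescent one 9, 5 and 5. Lysine to arginine gave 6 rises and 1 fall of 24 (0.06) and lysine to alanine 3 and 3 of 20 (0.11). Lysine to glutamine gave 8 and 5 of 24 (0.32), from H3K122Q to H3K79Q. Rises made up 25%, 15% and 33.3% of these classes, against 32.3% of all substitutions. On the scale of the wild type the direction turned for all of these lysine classes (fitted medians of -0.34, -0.27 and -0.07), as it did with DESeq2 for lysine to arginine (-0.08) and lysine to alanine (-0.02) and with TMM for lysine to arginine (-0.05). Without the non-quiescent library of day 0, lysine to glutamine gave 0 rises and 3 falls, and without the quiescent one 2 and 4. Glutamine rose in 7 and fell in 2 of 13 tail lysines (median 0.51), and rose in 1 and fell in 3 of 11 lysines of the folds (0.03). The widest gaps within a residue were at R36 of H4, K115 of H3, S57 of H3 and R3 of H4. H4R36K had 235 to 316 counts at days 1-3 (median 248.5), against 352 and 151 at day 0, and stood at 0.21, 4.58 above H4R36A. H3K115R was at 0.02, 3.63 above H3K115Q, and H3S57A 3.13 above H3S57D. At R3 of H4 alanine was the higher one, since H4R3A rose by 1.03 (SE 0.21, adjusted p = 0.00399), 2.57 above H4R3K. Among modifiable core lysines, 2 of 18 strains rose (H4K79R by 1.05 and H4K59R by 1.00) and 4 fell. These gaps were chosen for their size, so no test was made of them. Paired within residues, glutamine was lower than arginine at 11 of 21 lysines (median -0.19) and alanine lower than lysine at 14 of 19 arginines (median -0.24), with SDs over residues of 1.17 and 1.43.

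The change in the quiescent libraries correlated with that in the non-quiescent libraries across 347 strains (Pearson 0.88, Spearman 0.81), which come from the same culture. No strain passed for the difference between the fractions with edgeR (0 of 347, 56 or 16.1% at an unadjusted p under 0.05), and 6 passed with DESeq2. With the quiescent libraries alone 57 strains rose and 41 fell, and with the non-quiescent ones 72 rose and 76 fell. Within a fraction day 0 is 1 library, taken to vary like those of days 1-3, so these counts are no comparison of the fractions. H4R67A is an example of a rise that leaned on 1 library, since it had 64 to 107 counts at days 1-3 (median 76), against 51 in the quiescent and 17 in the non-quiescent library of day 0. Its difference of 1.42 (SE 0.40, adjusted p = 0.0233) was 0.54 in the quiescent and 2.30 in the non-quiescent fraction, and its adjusted p was 0.217 without the non-quiescent library of day 0.

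The change in renewed growth was weakly correlated with the later change in stationary culture, measured between days 24-44 and days 7-14 in other libraries. Across 347 strains the Spearman correlation of the change at days 1-3 with the later change was 0.17 in the quiescent and 0.16 in the non-quiescent libraries. The Pearson values were 0.24 and 0.27, and all are given as a description over strains of 1 culture. With both fractions together no strain passed for the later change with edgeR (0 of 347, 25 or 7.2% at an unadjusted p under 0.05; 4 with DESeq2). In the quiescent libraries alone, an analysis added after the values were seen, 78 strains rose (22.5%) and 72 fell (20.7%), and in the non-quiescent ones none passed (47 or 13.5% unadjusted). Of the 68 strains that fell at days 1-3, 16 fell and 12 rose later in the quiescent libraries. Of the 99 that rose, 17 fell and 24 rose. H4K16A, H4Y51F and H3S57D, chosen here after their values were seen, fell in growth and rose later, by 2.32 (adjusted p = 0.00963), 1.66 (adjusted p = 0.0105) and 1.28 (adjusted p = 0.0146) with edgeR. The call of H4K16A in growth was lost when either library of day 0 was left out. H4Y51F had 167 to 388 counts at days 1-3 (median 213.5), against 797 and 770 at day 0, a fall of 1.78 (SE 0.25, adjusted p = 0.000702). H3R2K and H4I66A did the reverse. Their growth calls were lost when either library of day 0 was left out. They also did not pass with the wild type as the zero (edgeR adjusted p of 0.128 and 0.302). H3R2K rose by 1.14 in growth (SE 0.31, adjusted p = 0.0139), with 653 to 1773 counts (median 1245.5), against 666 and 427, and fell by 1.93 later (adjusted p = 0.00963). H4[del 1-4] fell in both periods (-3.36 and -2.68).

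**Figure D5:**
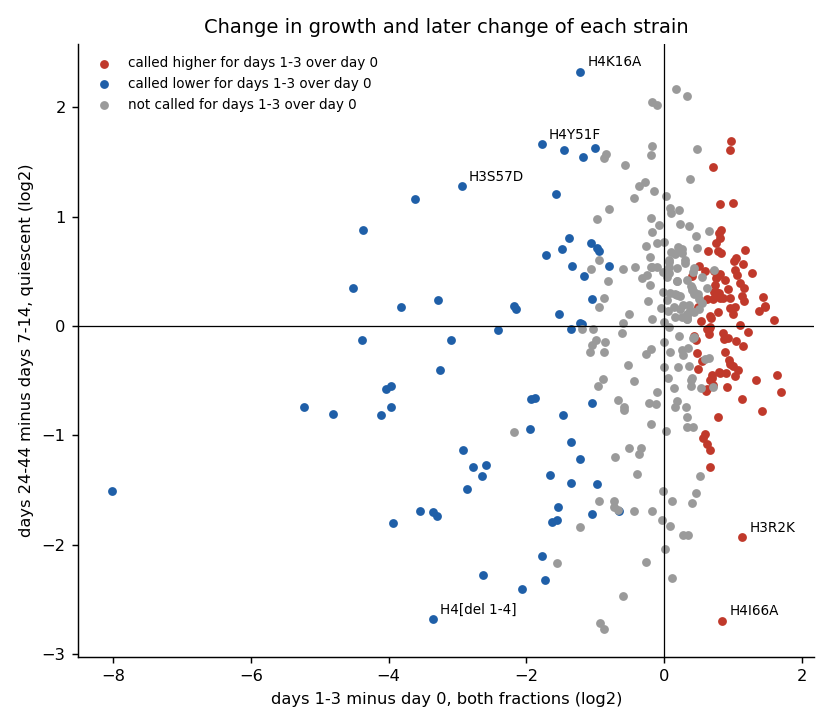
Difference between days 1-3 and day 0 in both fractions (x axis) against the difference between days 24-44 and days 7-14 in the quiescent libraries (y axis), in log2 units, 1 point per strain, coloured by the call of the x axis. Strains that fell in growth lie on both sides of 0 later, with H4K16A at 2.32 and H4[del 1-4] at -2.68.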

How the data were processed

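The authors amplified the up and down barcodes of each library by separate PCRs, sequenced them single-end (Illumina) and assigned reads to strains with get_seqs_from_fastq and match_barcodes_to_strain. The deposited values are raw counts without molecular identifiers, so intervals cover counting error only. Each library listed 488 barcode pairs. The 65 without a strain name in the barcode table held 10.6% to 15.2% of the counts of the 8 libraries and were set apart. A deposited table of values processed by the authors was not used. 

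Counts of both barcodes were added, strains averaging under 10 over the 20 libraries were dropped, and log2 was taken (0.5 where 0) and centred on the median strain. Differences printed are those of mean levels. The SEs beside them belong to the edgeR coefficients, which can differ from them (-3.29 against -3.94 for H3K4,9,14,18R). SEs and p-values came from the quasi-likelihood F-test of edgeR 4.0.16 (R 4.3.3, with the library scale set to the median strain, Benjamini-Hochberg adjusted p under 0.05). "Fitted" medians are of edgeR coefficients. The study's methods name no test for the barcode counts. The test was tried on simulated counts first. Named strains were the wild type, the 12 highest and 12 lowest called differences, the 2 highest and 2 lowest of each residue list and the 4 residues with the widest spread at a mean of 50 counts or more at day 0. Parts of the rule for later days and for the fractions named none. Strains outside the rule complete a residue, a deletion series or a group that it names and were chosen after their values were seen. The lists and the comparison were chosen with earlier results of these data known. The libraries are serial samples of 1 culture, so p-values measure only the spread between them and do not cover differences between cultures. Alternatives were other scales, DESeq2 1.42.0, limma 3.58.1, other filters, single barcodes and left-out libraries. Python 3.11.15 was used.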

Additional observations from a re-analysis of the deposited data

Results flagged for a closer look

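In H3T3D the change differed in direction between the fractions. Its 3 quiescent libraries of days 1-3 lay above that of day 0 (0.57) and its 3 non-quiescent libraries below (-1.09), a difference of 1.66 that did not pass the test of the interaction (edgeR adjusted p = 0.178). H4R36K did the opposite, with a quiescent minus non-quiescent difference of -0.92 (adjusted p = 0.277). H4R17K had 1 library far from the others, since its level in the non-quiescent library of day 1 was -1.59, the lowest of its 6. About 1 in 20 groups would stand out so by chance. Of the barcode pairs without a strain name, 57 had a mean of at least 10 counts. Their differences ran from -3.11 to 1.05 (median -0.15), with 11 more than 2-fold lower and 1 more than 2-fold higher, and they entered no comparison.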

How the results depend on the processing

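The 167 strains called for days 1-3 over day 0 came to 111 with the wild type as the zero, 105 with a mean per day, 98 in the quiescent libraries only and 103 with day 1 only (added after seeing the data). The cause was not tested. Rises were 59.3% of the calls, against 47.9% with TMM and 20.7% with the wild type as the zero. Leaving out 1 library gave 45 to 170 calls, with 45 without the non-quiescent and 85 without the quiescent library of day 0, where a single library stands for day 0 and is taken to vary like the others. With the libraries matched by fraction, as a block, 203 strains passed. Other settings stayed within 1.5 times of 167. The difference between the fractions, with no call by edgeR, gave 6 with DESeq2 and 2 with the up barcode alone. The later change, with none, gave 4 with DESeq2 and 150 in the quiescent libraries only (added after seeing the data). Of the named strains H3T3D passed with the opposite sign in the quiescent libraries only (0.57), and the fitted difference of 11 others that were not called took both signs over the alternatives without passing against their main sign. Of the 72 named strains that were called, 44 did not pass without the non-quiescent and 21 without the quiescent library of day 0, 27 passed in each alternative, and 35 of all strains did, 28 of them lower. Day 0 rests on 2 libraries and 1 culture. By replicate number no paired analysis was possible because each group of 1 day and fraction held 1 library and all bear the same number, so that the block by fraction is the matched fit.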
